A study of Daphnia magna with 335 samples.

Results

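The most abundant transcripts of whole Daphnia magna, a water flea, were taken as the probes with a mean above 3000 CPM over the 36 solvent (dimethyl sulfoxide, DMSO) pools. CPM is the count of a probe scaled to a library total of 1000000. Of 2378 probes on the panel, 56 passed, for 50 gene identifiers, of which 6 had a pair of passing probes. Because the probes were chosen by these values, their levels in DMSO are a description with no test.

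Animals were exposed for 24 h to 1 of 12 chemicals at 8 levels, coded D8 (lowest concentration) to D1 (highest), and each library was a whole-body pool of 5 animals, from which dead animals were left out. The treated groups were 1(2H)-Phthalazinone and Gabapentin (exposure C3C4), 2-tert-Butyl-4-methoxyphenol and Metribuzin-DA (C5C6), 4-Chlorophenyl methyl sulfoxide (so named in the sample labels, while the series' design text names the sulfone) and Hydrochlorothiazide (C7C8), Cetirizine and Fipronil amide (C9C10), Fexofenadine and cis-Nonachlordane (C11C12), and Metolachlor OA and 3,4-Dichlorophenyl isocyanate (C1C2). Every treated level had 3 pools, with replicate letters A, B and C, except that 2 pools each of 3,4-Dichlorophenyl isocyanate at D1 and D2 were used. The 6 DMSO pools of each exposure served both of its chemicals, and treated wells carried the solvent too. 12 further libraries are named control QA. The labels give no age, strain or sex for the animals.

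In TempO-Seq a probe is read where its parts are joined on the target message, so a level here ranks probe counts and not transcript molecules: probes differ in how well they bind and ligate. In a whole small crustacean, the most abundant messages usually come from the gut, where digestive enzymes are made, from muscle and cuticle, and from the machinery of protein synthesis. Which of these the 56 probes measure is not given here, since 0 of the 50 identifiers were found in the reference gene table, so probes are named by identifier and no function is given to them.

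Without 1 library set aside (replicate C of 3,4-Dichlorophenyl isocyanate at D2), total counts ran from 167462 to 1171681 with a median of 619755, and from 293743 to 1040341 in the DMSO pools. At these depths the 95% exact binomial interval of a share of counts was at most 0.236 percentage points to either side, for counting error only, since amplified reads are not independent molecules. All 56 probes passed the filter on low counts in every fit. p-values measure the spread between pools of 1 exposure, and in whole-animal pools fewer cells of a type and less RNA per cell cannot be told apart.

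The 56 probes, 2.35% of the panel, held more than 1 of every 2 counts. Their share was 44.1% at the lowest, 56.1% at the median and 71.0% at the highest over 286 treated libraries. It was 55.1% to 58.5% with a median of 57.3% in the 12 control QA libraries, and 52.7% to 65.9% with a median of 56.2% in the 36 DMSO pools. The 10 most abundant probes alone held 28.3% on average in DMSO pools, between 24.7% and 36.3%.

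Dapma7bEVm002814_97242 led with 33468 CPM in the lowest, 50607 in the median and 94970 in the highest DMSO pool. Dapma7bEVm015219_97771 followed at 39480, 48193 and 54046 CPM, a much narrower range. Dapma7bEVm004991_97269 stood at 29515, 38905 and 50507 CPM, and Dapma7bEVm010425_96130 at 3765, 32094 and 49392 CPM. The first and the fourth probe thus spread widely over the same pools in which the second did not.

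The next 6 were closer together in level. Dapma7bEVm002476_96707 averaged 20618 ± 5508 CPM in DMSO (SD, n = 36), Dapma7bEVm010516_96901 19241 ± 2150 CPM and Dapma7bEVm015161_95937 18425 ± 2957 CPM. Dapma7bEVm002026_96895 averaged 17905 ± 1439 CPM, Dapma7bEVm028555_96088 17479 ± 5727 CPM and Dapma7bEVm028877_97446 17065 ± 5591 CPM. Neighbours in this order differed by less than their SD.

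Of all 56, 14 had a mean above 10000 CPM, 18 between 5000 and 10000 and 24 between 3000 and 5000, and 31 were above 3000 CPM in every DMSO pool. The last inside the threshold were Dapma7bEVm005402_96131 at 3220 CPM, Dapma7bEVm027886_97794 at 3177 CPM and Dapma7bEVm005407_96852 at 3033 CPM. Just outside stood Dapma7bEVm015441_95857 at 2965 CPM, Dapma7bEVm000055_95946 at 2930 CPM and Dapma7bEVm010295_98002 at 2901 CPM, so the threshold fell within a continuous range.

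Other probes of the same identifiers were often far below. Of the 50 identifiers, 28 had another probe on the panel, counting the 6 with a pair of passing probes. The probes of these identifiers that did not pass numbered 34, of which 16 averaged under 10 CPM in DMSO and 9 over 1000 CPM. An identifier's place among the most abundant therefore depended on the probe read.

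Within an exposure, the coefficient of variation over DMSO pools was 6.64% at the lowest, 12.8% at the median and 39.2% at the highest of the 56, against a median of 20.2% for the 1335 other probes tested between exposures. Probes with lower counts carry more counting error, and the 56 were chosen for high means in these pools. These medians are therefore not a like comparison, and the part of counting error was not tested. The steadiest of the 56 were Dapma7bEVm018551_96598 (6.64%), Dapma7bEVm003127_97740 (6.74%) and Dapma7bEVm010516_96901 (6.81%). The most variable were Dapma7bEVm000432_95727 (39.2%), Dapma7bEVm015667_97910 (37.6%) and Dapma7bEVm027952_95783 (33.6%). The first of these rests on C1C2: over the other 5 exposures the value of Dapma7bEVm000432_95727 was 10.3%, below the median of 10.7%. Without C1C2 Dapma7bEVm015667_97910 stood at 39.2% and Dapma7bEVm027952_95783 at 33.1%.

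Between exposures, the ratio of the highest to the lowest mean in DMSO ran from 1.11 to 4.53 with a median of 1.66, against a median of 1.63 for the other tested probes. The ratio was above 2 for 18 probes and under 1.3 for 13. Exposure C1C2 held the highest mean of 19 probes and the lowest of 21. Dapma7bEVm000952_97531 had the widest ratio, with 7440 ± 1176 CPM in C11C12 and 1642 ± 738 CPM in C1C2 (SD, n = 6 each). Dapma7bEVm015029_96433 averaged 8163 ± 2815 CPM in C5C6 and 1937 ± 648 CPM in C1C2, a ratio of 4.21. The ratio was 3.62 for Dapma7bEVm027952_95783, also highest in C5C6 and lowest in C1C2, and 3.49 for Dapma7bEVm015667_97910, highest in C1C2 and lowest in C3C4. Without letter A of C1C2 the order differs: the ratio was then 3.96 for Dapma7bEVm027952_95783, 3.78 for Dapma7bEVm015667_97910, 3.69 for Dapma7bEVm015029_96433 and 3.60 for Dapma7bEVm000952_97531. Dapma7bEVm002814_97242 averaged 76737 ± 11170 CPM in C1C2 and 38751 ± 4399 CPM in C5C6.

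The lowest-level (D8) libraries, which did not choose the probes, gave a test of the same question. In these 36 libraries 44 of the 56 probes differed between exposures, against 68.7% of all 1391 probes tested (quasi-likelihood test of edgeR, Benjamini-Hochberg adjusted over all probes, with a threshold of 0.05 throughout). The exposure with the lowest mean was the same in D8 and DMSO libraries for 45 probes and the one with the highest for 38. Dapma7bEVm002814_97242 again stood at 88496 ± 9193 CPM in C1C2 and 39305 ± 6808 CPM in C5C6 (adjusted p = 1.91e-08). Dapma7bEVm015219_97771 ran only from 45628 to 50174 CPM over the 6 exposure means (adjusted p = 0.62). Exposures differ in their chemicals too, and the 2 cannot be told apart in this test.

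Pools of 1 replicate letter stood apart within exposure C1C2. Among its treated libraries 10 of the 56 probes were more than 2-fold lower in the 16 of letter A than in the 30 of letters B and C, by 1.84 to 2.79 on the log2 scale, while the other 46 lay between -0.56 and 0.52. In all, 34 of the 56 differed between letters there, against 43.3% of all probes tested. The DMSO pools were not in that fit. For 9 of the 10 both DMSO pools of letter A lay below all 4 of letters B and C. The exception was Dapma7bEVm015029_96433, with 698.9 and 2087 CPM in letter A and 1855 to 2470 CPM in letters B and C.

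Dapma7bEVm010425_96130 had 1178 CPM in the lowest, 4600 in the median and 14259 in the highest treated library of letter A. The same values were 9549, 31032 and 61832 CPM for letter B, and 14882, 33315 and 44241 CPM for letter C. The 2 DMSO pools of letter A held 3765 and 13990 CPM and the 4 of letters B and C between 36584 and 49392 CPM. The log2 difference between A and the mean of B and C was -2.79 ± 0.21 (SE), with an adjusted p of 2.59e-12 for the letters.

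Dapma7bEVm001565_97627 had 615, 1497 and 6814 CPM in the lowest, median and highest treated library of letter A. All lay below the 6857 CPM that was the lowest of letter B. The log2 difference between A and the mean of B and C was -2.64 ± 0.16. In edgeR the adjusted p was 1.18e-14 for any difference between letters. The other 8 were Dapma7bEVm000432_95727, Dapma7bEVm027886_97794, Dapma7bEVm001511_96121, Dapma7bEVm001460_96205, Dapma7bEVm000952_97531, Dapma7bEVm015029_96433, Dapma7bEVm027719_96163 and Dapma7bEVm028877_97446. Together the 10 held 1.06% to 5.55% of the counts in libraries of letter A, DMSO pools included, and 8.11% to 16.2% in those of letters B and C.

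Total counts also differed by letter, with a median of 506956 for A and 696794 for B and C, and their part in the result was not tested. By the labels each of 3 plates gave 1 pool per group, but they do not say that a letter names a plate. In the other exposures no probe of the 56 differed between its letter means by more than 1 on the log2 scale. Letters still separated 7 of the 56 probes in C5C6, 17 in C7C8, 31 in C3C4, 37 in C11C12 and 39 in C9C10, against 8.66%, 14.7%, 36.9%, 29% and 36.6% of all probes tested. This test was added after the values of C1C2 were seen.

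Replicates also differed in step across probes. In 144 libraries of the 6 chemicals outside C1C2 with no call among the 56 over all levels, log2 CPM was compared after group means were taken off. Of 1540 pairs of probes, 31 correlated above 0.8 and 25 below -0.8, with a median of 0.01. Once the letter means were also taken off, 20 pairs were above 0.8 and 10 below -0.8. Such counts for pairs of other probes are not given here. Dapma7bEVm009919_96386 and Dapma7bEVm009911_97923 varied together (Pearson r = 0.97, Spearman rho = 0.95, and r = 0.96 without the 2 libraries farthest from the median). Dapma7bEVm028555_96088 and Dapma7bEVm018560_96096 had r = 0.93 and rho = 0.93.

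Between these pairs the sign was opposite: Dapma7bEVm028555_96088 and Dapma7bEVm009919_96386 had r = -0.92 and rho = -0.91, and r = -0.88 with the letter means also taken off. In 30 DMSO pools outside C1C2 the same pair had r = -0.90. The pairs named are among the most extreme and were chosen after their values were seen.

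All points of a library share its total, and CPM of abundant probes are bound to a fixed sum. Library total itself moved with many of them: 13 of the 56 correlated above 0.5 with log2 total and 8 below -0.5, as did 90 and 140 of 1387 other probes. With the letter means also taken off, 3 of the 56 correlated above 0.5 and 0 below -0.5, and 10 and 18 of the others. The most extreme were Dapma7bEVm015219_97218 (r = 0.74, and 0.61 with letter means off) and Dapma7bEVm014958_97442 (r = -0.72, and -0.37 with letter means off). For Dapma7bEVm010425_96130 the values were 0.03 and -0.09.

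Exposure to the chemicals left the summed share of the 56 near that of DMSO in most groups. Of 96 groups, each of 1 chemical and level, 80 averaged within 2 percentage points of the DMSO pools of their exposure. In 1 group every pool lay below every DMSO pool, 2-tert-Butyl-4-methoxyphenol at D1, with 44.1%, 44.9% and 46.6% against 55.2% to 58.9%. In 2 groups every pool lay above, 4-Chlorophenyl methyl sulfoxide at D2 with 55.4% to 55.9% and at D7 with 55.4% to 56.6%, against 53.9% to 55.3%.

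Single pools stood apart as well. Replicate B of Metolachlor OA at D1 held 71.0%, against 55.8% and 56.4% in the other pools of its group. DMSO pool CON C of C1C2 held 65.9%, against 52.7% to 58.1% in the other 5. The DMSO mean of C1C2 was 57.5% with this pool and 55.8% without it. Most groups more than 2 percentage points from DMSO were in C1C2, and the count of 80 groups above was made with this pool included.

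Over all levels together, edgeR called 43 of the 56 probes for 2-tert-Butyl-4-methoxyphenol (background 46.2% of all probes tested), 21 for cis-Nonachlordane (12.1%), 10 for Fipronil amide (7.19%), 5 for 3,4-Dichlorophenyl isocyanate (6.06%) and 3 for Metribuzin-DA (4.64%). The shares of the 56 were 76.8%, 37.5%, 17.9%, 8.93% and 5.36%. The same DMSO pools chose the probes and served as controls. These fits took no account of the replicate letter, and counts with the letter as a block are given in the last part.

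The other 7 chemicals had 0 calls, with backgrounds of 0% to 0.556%. At an unadjusted p under 0.05 they had 11 (Metolachlor OA), 10 (Gabapentin), 9 (Fexofenadine), 5 (4-Chlorophenyl methyl sulfoxide), 4 (1(2H)-Phthalazinone), 4 (Cetirizine) and 1 (Hydrochlorothiazide). The shares of the 56 were 19.6%, 17.9%, 16.1%, 8.93%, 7.14%, 7.14% and 1.79% in that order, and those of all probes tested were 6.42%, 9.65%, 7.34%, 11.1%, 9.70%, 8.48% and 3.95%. DESeq2 called 0, 5, 1, 4, 2, 1 and 0 of the 56 for them in the same order, and its shares of all probes tested are not given here. Of the 56, 11 were called for no chemical, 19 for 1, 15 for 2 and 11 for 3. The like count over all probes tested is not given here, so these numbers do not set the 56 apart from the panel.

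Trends over the 8 treated levels used no DMSO pool and so no library that chose the probes. For 2-tert-Butyl-4-methoxyphenol 11 rose with concentration (background 17%) and 10 fell (11%). For cis-Nonachlordane 3 rose (3.47%) and 10 fell (4.95%), for Fipronil amide 3 rose (3.89%) and 4 fell (2.96%), and for 3,4-Dichlorophenyl isocyanate 1 rose (3.8%) and 5 fell (2.49%). The remaining 8 chemicals had 0 such calls in edgeR and, at an unadjusted p under 0.05, between 0 and 12 of the 56. The share of the 56 was 0% at the lowest (1(2H)-Phthalazinone, against 6.27% of all probes tested) and 21.4% at the highest (4-Chlorophenyl methyl sulfoxide, against 12.4%). DESeq2 called 2 for 4-Chlorophenyl methyl sulfoxide and 0 for the other 7.

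2-tert-Butyl-4-methoxyphenol, known as an antioxidant additive, changed 47 of the 56 at D1 (66.67 µM): 18 were higher (background 27.3%) and 29 lower (24.5%). The median log2 fold change of the 56 was -0.36, against -0.03 for all probes tested. At D2 (21.1 µM) 2 were lower (background 0.408%). From D5 to D3 and at D8 edgeR called 0 of the 56 (backgrounds 0% to 0.068%), where at most 1 had an unadjusted p under 0.05 and DESeq2 called 0. At D6 1 was higher (2.04%) and none lower (0.204%), and 1 was higher (3.33%) and 3 were lower (1.43%) at D7.

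The 2 deepest falls were in probes that also stood low in letter A of C1C2. Dapma7bEVm001460_96205 had 22.6, 48.7 and 32.6 CPM at D1, which rest on 11, 31 and 23 counts, against 2461 to 3273 CPM in DMSO. It stood at 1726, 1739 and 1321 CPM at D2. The log2 fold change at D1 was -6.52 ± 0.31 (SE, n = 3 against 6, edgeR adjusted p = 1.33e-14).

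Dapma7bEVm010425_96130 had 36696, 30086 and 20210 CPM at D8, then 17829, 15024 and 15162 CPM at D2 and 1147, 902.3 and 713.6 CPM at D1, against 29529 to 43329 CPM in DMSO. Its fold change at D1 was -5.44 ± 0.30 (edgeR adjusted p = 1.97e-13). Its pools at D2 and at D1 lay below every DMSO pool.

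Dapma7bEVm028877_97446 showed no such step: it had 15885, 16260 and 18779 CPM at D2, inside the DMSO range of 12194 to 19291 CPM, and 959.4, 848.9 and 1751 CPM at D1. Of the 10 probes low in letter A of C1C2, 9 were lower here at D1, from -0.47 for Dapma7bEVm001565_97627 to -6.52. The remaining one, Dapma7bEVm000432_95727, had a log2 fold change of 0.28 ± 0.22 (adjusted p = 0.29). The background is high, since 51.8% of the most abundant probes and 24.5% of all probes tested were lower at D1. These 10 were chosen after their values were seen, and a link between the letter and the chemical was not tested.

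The highest rises were smaller. Dapma7bEVm004991_95961 had 7922, 9192 and 9714 CPM at D1, against 2317 to 2948 CPM in DMSO (log2 fold change 1.66 ± 0.18, edgeR adjusted p = 3.27e-08). Dapma7bEVm004770_97806 had 8318, 9943 and 10141 CPM, against 2692 to 3420 CPM (log2 fold change 1.499 ± 0.174). In both, the groups did not overlap. Total counts at D1 were 485715 to 704859, within the 428776 to 1040341 of the DMSO pools.

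Scaling by library totals put the median of all probes at D1 at 0.12, where TMM scaling gave -0.03, with 19 of the 56 higher and 24 lower. On all levels the trend test called 21 of the 56 in edgeR and 27 in DESeq2. Without the highest level it called 0 in edgeR, with 3 at an unadjusted p under 0.05, and DESeq2 was not run without that level. With 2 pools per level the edgeR trend test called 29, 1 and 2 without letters A, B and C, of which 19, 1 and 2 were among the 21 called with all pools. Over all levels the same fits called 45, 23 and 22, of which 40, 23 and 22 were among the 43.

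Pairs of probes of the same identifier parted at D1. For 4 of the 6 such identifiers the more abundant probe fell and the less abundant one rose, both past the threshold. Dapma7bEVm004991_97269 had 20477, 22535 and 23964 CPM, against 41487 to 50507 CPM in DMSO (log2 fold change -1.13 ± 0.19, edgeR adjusted p = 2.06e-05), where Dapma7bEVm004991_95961 rose as given above. The same held for Dapma7bEVm003127_97740 (-0.72 ± 0.15) and Dapma7bEVm003127_96639 (0.79 ± 0.18), for Dapma7bEVm018551_96598 (-0.42 ± 0.14) and Dapma7bEVm018551_95806 (0.75 ± 0.16), and for Dapma7bEVm002026_96895 (-0.27 ± 0.11) and Dapma7bEVm002026_95902 (0.48 ± 0.10). Over the panel, 142 pairs of probes of 1 identifier were tested at D1; both were called in 55, in the same direction in 43 and in opposite directions in 12.

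The ratio within such a pair also varied without treatment. The log2 ratio of Dapma7bEVm004991_97269 to Dapma7bEVm004991_95961 was 1.29 to 1.37 at D1 of 2-tert-Butyl-4-methoxyphenol, against 3.86 to 4.39 in the DMSO pools of C5C6. In DMSO pools of C1C2 it was 1.79 to 2.43, below every DMSO pool of the other exposures, which ran from 2.74 to 4.39. D8 libraries gave 1.90 to 2.14 in C1C2, again below the 2.54 to 4.46 of the other exposures. The pairs were not alike in this. The DMSO mean of the log2 ratio was lowest in C1C2 also for Dapma7bEVm003127 (0.53), Dapma7bEVm018551 (0.24) and Dapma7bEVm002026 (1.55). It was highest there for Dapma7bEVm005407 (0.345). For Dapma7bEVm015219 it was 2.55 in C1C2, between the 2.30 of C11C12 and the 2.61 of C3C4. What the files do not give is which transcript forms the probes of a pair target.

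cis-Nonachlordane, a component of the insecticide chlordane, changed its probes from lower levels upward. At D8, 2 were higher (background 0.421%) and 1 lower (0.281%). At D7 and D6 edgeR called 0 of the 56, where 1 and 4 had an unadjusted p under 0.05 and DESeq2 called 0. At D5 (0.669 µM) 7 were higher (2.81%) and 1 lower (1.4%), and at D4 9 were higher (3.93%) and 8 lower (3.51%). At D3 4 were higher (1.76%) and 6 lower (2.25%), at D2 (21.1 µM) 7 were higher (3.3%) and 10 lower (4%), and at D1 2 were higher (1.54%) and 4 lower (1.62%). The count was thus not highest at the highest concentration.

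Dapma7bEVm015029_96433 fell over the levels. It had 5924, 3646 and 4480 CPM at D8, 11220, 4709 and 5985 CPM at D7, 8289, 3292 and 3456 CPM at D5, 3259, 3192 and 2910 CPM at D4, and 2091, 2031 and 1558 CPM at D1, against 4409 to 7662 CPM in DMSO. The letter A pools at D7 and D5 lay above every DMSO pool, while every pool shown at D4 and D1 lay below them. The log2 fold change at D1 was -1.67 ± 0.30 (edgeR adjusted p = 0.0014) and the trend -0.29 ± 0.04 per level step (adjusted p = 6.8e-05).

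Dapma7bEVm027952_95783 had 4005, 3920 and 4042 CPM at D2, against 7600 to 10724 CPM in DMSO (-1.26 ± 0.27, edgeR adjusted p = 0.0059). Dapma7bEVm001460_96205, Dapma7bEVm010425_96130 and Dapma7bEVm000952_97531 also fell over the levels, by 0.16, 0.14 and 0.13 per level step on the log2 scale.

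Others of the 10 probes low in letter A of C1C2 went the other way. Dapma7bEVm000432_95727 had 4904, 5812 and 5777 CPM at D5, against 3005 to 3688 CPM in DMSO (0.73 ± 0.12, edgeR adjusted p = 9.75e-04). Dapma7bEVm001511_96121 and Dapma7bEVm001565_97627 were higher at D2 by 0.43 and 0.53. Dapma7bEVm011308_97316, which is not one of the 10, had 6804, 8256 and 7463 CPM at D5, against 4273 to 5791 CPM (0.72 ± 0.13, edgeR adjusted p = 0.0015).

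Total counts at D2 were 637218 to 686943, against 293743 to 652798 in DMSO. Dapma7bEVm015029_96433 and Dapma7bEVm027952_95783 correlated with log2 total at 0.55 and 0.56 in the 144 libraries above, and at 0.26 and 0.24 with letter means off; the part of depth in these falls was not tested. Without letters A, B and C, 15, 12 and 5 probes were called over all levels, of which 14, 12 and 5 were among the 21 called with all pools. The trend test then called 5, 10 and 8, of which 5, 10 and 7 were among the 13. Each of the 4 single-level calls given with a p was lost when 1 letter was left out: letter B for Dapma7bEVm011308_97316 and letter C for Dapma7bEVm015029_96433, Dapma7bEVm027952_95783 and Dapma7bEVm000432_95727 (adjusted p 0.18, 0.070, 0.17 and 0.071).

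Fipronil amide, which forms from the insecticide fipronil, changed probes at D1 (56.43 µM), where 16 were higher (background 9.71%) and 5 lower (6.04%). By library totals the split was 13 higher and 13 lower, with the median of all probes at -0.16, where TMM scaling gave 0.00.

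Dapma7bEVm028877_97446 had 19275, 16592 and 22575 CPM at D3, 26684, 23891 and 28144 CPM at D2 and 34031, 29484 and 39756 CPM at D1, against 17028 to 22191 CPM in DMSO. Its log2 fold change at D1 was 1.08 ± 0.15 (edgeR adjusted p = 1.25e-05). Dapma7bEVm001565_97627 had 11814, 13119 and 11523 CPM, against 6787 to 7519 CPM (0.96 ± 0.07, adjusted p = 1.1e-09 in edgeR). Both lay above every DMSO pool.

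Dapma7bEVm010425_96130 had 12613, 12716 and 13257 CPM at D1, against 31023 to 36587 CPM in DMSO (-1.25 ± 0.13, edgeR adjusted p = 1.77e-07). Dapma7bEVm015029_96433 had 1842, 1778 and 2169 CPM, against 4328 to 6479 CPM (-1.26 ± 0.18). Total counts at D1 were 509882 to 788891, against 475746 to 635099 in DMSO. Without letters A, B and C, 2, 6 and 13 probes were called over all levels, of which 2, 5 and 10 were among the 10 called with all pools. The trend test then called 1, 1 and 11, of which 1, 1 and 6 were among the 7 called with all pools, and without the highest level it called 1.

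The chemicals shared part of these lists while their DMSO pools were different animals. Of the 18 probes higher at D1 of 2-tert-Butyl-4-methoxyphenol and the 16 higher at D1 of Fipronil amide, 12 were shared, 66.7% and 75% of each list. All 5 that were lower with Fipronil amide were among the 29 lower with 2-tert-Butyl-4-methoxyphenol (17.2% of these). All 10 lower at D2 of cis-Nonachlordane were among those 29 as well (34.5%), and its 7 higher ones were all among the 16 of Fipronil amide (43.8%). Other overlaps were smaller: of the 7 higher with cis-Nonachlordane, 4 were higher and 2 lower with 2-tert-Butyl-4-methoxyphenol, and of the 10 lower, 4 were lower with Fipronil amide. These shares have a high background, since 51.8% of the 56 were lower at D1 of 2-tert-Butyl-4-methoxyphenol and 28.6% were higher at D1 of Fipronil amide. The panel as a whole overlapped too: of all probes tested in both comparisons, 87.4% of those higher with Fipronil amide were higher with 2-tert-Butyl-4-methoxyphenol and 81.0% of those lower were lower. Of those lower with cis-Nonachlordane 82.5% were lower with 2-tert-Butyl-4-methoxyphenol, and of those higher 53.3% were higher with Fipronil amide. Concentrations differed between these groups, 66.67, 56.43 and 21.1 µM for 2-tert-Butyl-4-methoxyphenol, Fipronil amide and cis-Nonachlordane.

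A few probes went against this. Dapma7bEVm028877_97446, Dapma7bEVm001511_96121 and Dapma7bEVm001565_97627 were lower at D1 of 2-tert-Butyl-4-methoxyphenol and higher at D1 of Fipronil amide. These differences in direction were not tested as such.

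3,4-Dichlorophenyl isocyanate had 1 probe that led the others. Dapma7bEVm011308_97316 had 4644, 3427 and 5996 CPM at D8, 7639, 4275 and 7369 CPM at D4, 8727, 9394 and 11075 CPM at D3, 20483 and 12019 CPM at D2 and 30077 and 19116 CPM at D1, against 3491 to 4880 CPM in DMSO. From D3 up every pool lay above every DMSO pool. The log2 fold change at D1 was 2.37 ± 0.22 (n = 2 against 6, edgeR adjusted p = 6.6e-07) and the trend 0.32 ± 0.04 per level step. This probe was higher at D1 of 2-tert-Butyl-4-methoxyphenol and Fipronil amide too.

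At D1 (66.67 µM) 2 probes were higher (background 2.75%) and 2 lower (1.65%). At D2 1 was higher (1.93%), at D3 1 was higher (4.2%) and 2 lower (1.03%), and at D4 1 was lower (0.0689%). Dapma7bEVm009540_96499 had 5458 and 4759 CPM, against 8105 to 10703 CPM in DMSO (-1.06 ± 0.27, edgeR adjusted p = 0.028). The call was lost with the 3 CON pools alone as controls (0.097), with the library set aside put back (0.086) and without letter B (0.30) or C (0.16). It was also under the DMSO range at D8, with 6038, 5794 and 7420 CPM.

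Dapma7bEVm002349_97117 had 4810, 3945 and 4228 CPM at D4 (2.113 µM), against 5663 to 6677 CPM (-0.70 ± 0.14, edgeR adjusted p = 0.036). Its adjusted p was 0.11 by library totals, 0.079 without DMSO pool CON C, 0.37 without letter B, 0.96 without letter C and 0.47 with the library set aside put back. Total counts at D1 were 349010 and 455753, both below the 503625 to 883082 of the DMSO pools, and the part of depth was not tested. Without letter A, which stands apart in this exposure, 8 probes were called over all levels and 11 for a trend, and without letter B or C 1 and 1. With the library set aside put back 5 and 4 were called.

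Metribuzin-DA, a degradate of a herbicide, had 9 of its 10 single-level calls at a middle level and the other at D7, given at the end. At D4 (2.113 µM) 2 probes were higher (background 6.19%) and 7 lower (4.91%), which is 3.57% and 12.5% of the 56. The trend test called 0 of the 56 in edgeR, where 10 had an unadjusted p under 0.05 and DESeq2 called 0. Dapma7bEVm002814_97242, the most abundant probe, had 24418, 24554 and 29048 CPM at D4, against 33468 to 45933 CPM in DMSO (-0.61 ± 0.16, edgeR adjusted p = 0.017). The call was lost with the 3 CON pools alone (0.11) and without letter A (0.073), B (0.17) or C (0.082). At the next higher level, D3, it had 53288, 42339 and 49508 CPM.

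Dapma7bEVm001511_96121 had 8658, 8586 and 11494 CPM at D4, against 11430 to 15713 CPM (-0.52 ± 0.17, edgeR adjusted p = 0.048). Letter C at D4 reached into the DMSO range, and the adjusted p was 0.12 by library totals, 0.25 with the 3 CON pools alone and 0.16, 0.32 and 0.11 without letters A, B and C. Total counts at D4 were 774302 to 866625, above 4 of the 6 DMSO pools, and Dapma7bEVm002814_97242 correlated with log2 total at -0.53 in the 144 libraries above, and at -0.36 with letter means off; the part of depth was not tested. Over all levels edgeR called 0 of the 56 with the 3 CON pools alone and without letter B or C, where 10, 2 and 12 had an unadjusted p under 0.05. DESeq2 with all pools called 11.

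Among the 7 chemicals with no call over all levels, 4-Chlorophenyl methyl sulfoxide had single-level calls of 1 probe. Dapma7bEVm010425_96130 had 39346, 35372 and 39230 CPM at D2 (0.63 ± 0.10, edgeR adjusted p = 0.0036) and 37465, 34917 and 36865 CPM at D1 (0.58 ± 0.10, adjusted p = 0.012), against 24020 to 28196 CPM in DMSO. The backgrounds were 0.07% and 0.14%. Total counts were 306511 to 716675 at D2 and 529781 to 826872 at D1, against 421891 to 791131 in DMSO. Its adjusted p over all levels was 0.055, and both single-level calls were lost with the 3 CON pools alone and without letter A, B or C. The direction is opposite to that at D1 of 2-tert-Butyl-4-methoxyphenol and of Fipronil amide, a difference that was not tested.

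Dapma7bEVm027952_95783 was higher at 0.067 µM (D7) of both chemicals of C5C6, which share their DMSO pools, and there the letters disagreed. It had 6511, 57426 and 64126 CPM at D7 of 2-tert-Butyl-4-methoxyphenol and 6854, 82223 and 48117 CPM at D7 of Metribuzin-DA in letters A, B and C, against 4641 to 15498 CPM in DMSO. The log2 fold changes were 2.43 ± 0.54 and 2.50 ± 0.65 (edgeR adjusted p = 0.024 and 0.032), with letter A inside the DMSO range in both. Total counts at D7 were 227676 to 538921 and 277137 to 657571, against 428776 to 1040341 in DMSO, and the part of depth was not tested. Outside D7, 2 treated libraries exceeded 20000 CPM, letter C of 2-tert-Butyl-4-methoxyphenol at D6 with 27683 CPM and letter B of Metribuzin-DA at D6 with 36356 CPM. The highest of all other libraries used was 17946 CPM.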

How the data were processed

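TempO-Seq libraries of whole Daphnia magna were analysed from a table of raw counts per probe, deposited by the authors for the whole series. The authors also deposited 1 table per chemical of log2 values (log2 of count plus 1, found by setting them beside the count table), in which some columns of 3,4-Dichlorophenyl isocyanate hold other values, equal to the raw counts; only their concentration lines were used, read from letters A and B. The submitters' processing notes name bcl2fastq; the step from reads to counts per probe is not stated in the labels or file headers.

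The probes and lists were chosen with earlier results of these data known. CPM uses library totals. Fits used edgeR 4.0.16 in R 4.3.3, for 1 chemical and the 6 matching DMSO pools at a time: TMM scaling, filterByExpr, quasi-likelihood F tests, Benjamini-Hochberg adjustment over all probes kept, threshold 0.05. Tests covered all levels, a linear trend over the level codes of treated libraries (log2 per level step), single levels (adjusted within a level), exposures in D8 libraries and letters within an exposure. A standard error is the log2 fold change over the root of F. Alternatives were DESeq2 1.42.0, scaling by library totals, no filter on low counts, the CON pools alone, the letter as a block and leaving out each letter. The tests were run on simulated data first. Summaries used Python 3.11.15.

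Named probes are the 10 most abundant, the 3 on either side of the threshold, the 3 most and 3 least variable, the 4 with the widest ratio between exposures and, per chemical, among probes called over all levels, the 2 highest and 2 lowest fold changes at their most changed called level with every pool on 1 side of the DMSO mean. Others were named after their values were seen: those low in letter A, correlated pairs, probes paired by identifier, the calls of 4-Chlorophenyl methyl sulfoxide, Dapma7bEVm028877_97446 with 2-tert-Butyl-4-methoxyphenol and the high values of Dapma7bEVm027952_95783.

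Replicate C of 3,4-Dichlorophenyl isocyanate at D2 was set aside, since 1 probe held most of its counts, and put back in an alternative.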

Additional observations from a re-analysis of the deposited data

Results flagged for a closer look

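Among 79 groups of 6 DMSO pools examined, for the summed share and for named probes, 5 held a pool far from the other 5 of its exposure; chance gives about 1 in 20. Dapma7bEVm002814_97242 had 62813 CPM in XtraC A of C3C4, against 48171 to 52935 in the others. Dapma7bEVm004991_97269 had 50507 CPM in CON B of C5C6, against 41487 to 44734. Dapma7bEVm028555_96088 had 17215 CPM in XtraC B of C9C10, against 20491 to 22071, and in the same pool Dapma7bEVm001565_97627 had 7519 CPM, against 6787 to 7033. Dapma7bEVm015219_97771 had 51008 CPM in XtraC C of C11C12, against 43177 to 45304.

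The library set aside, replicate C of 3,4-Dichlorophenyl isocyanate at D2, had 118094 counts, of which Dapma7bEVm027952_95783 held 74.8% (exact 95% interval 74.5% to 75.0%), against 0.197% to 0.323% in the DMSO pools of C1C2. The 56 probes together held 80.9% of it.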

How the results depend on the processing

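Of 17 named fold changes under 142 alternatives, 118 stayed past the threshold in the same direction, 24 fell short of it and 0 reversed; 9 stayed past it under every alternative run. Of 345 alternative counts and shares, 269 stayed within 1.5 times, and a count of 0 that stayed at 0 was included in these. Many of the 269 were such counts, from chemicals with 0 calls, so the number overstates how steady the other counts were. The cause of the changes in the rest was not tested. A threshold of 2000 CPM gave 90 probes and one of 5000 CPM gave 32. Counts over all levels with DESeq2 were 2 for 1(2H)-Phthalazinone, 8 for 3,4-Dichlorophenyl isocyanate, 4 for 4-Chlorophenyl methyl sulfoxide, 1 for Cetirizine, 1 for Fexofenadine, 19 for Fipronil amide, 5 for Gabapentin and 11 for Metribuzin-DA, which had 1 by library totals and 0 with CON pools alone in edgeR. The trend count without the highest level was 0 for 2-tert-Butyl-4-methoxyphenol and 1 for Fipronil amide, and DESeq2 gave 2 for 4-Chlorophenyl methyl sulfoxide.

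Same-letter libraries deviated together in part: their mean correlation was 0.0138 to 0.258 by chemical, above that of other letters in all 12, and 11 to 23 of the 28 to 30 libraries matched their own letter best, at least 17 in 10 chemicals, a hint from the data and not the design. The lowest same-letter pair was negative in each and the labels do not say what a letter shares, so the letters were not taken as pairs. A lowest value over many pairs can be negative even where letters share something, so it does not decide this. With the replicate block 32 probes were called for cis-Nonachlordane over all levels (21 without it) and 18 for Fipronil amide (10 without it). It gave 2 for 4-Chlorophenyl methyl sulfoxide, 2 for Gabapentin and 1 for Cetirizine. Summed over single levels, the block gave 22 calls for 3,4-Dichlorophenyl isocyanate, 8 for 4-Chlorophenyl methyl sulfoxide, 7 for Cetirizine, 7 for Metolachlor OA and 2 for Gabapentin.

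Other sums over single levels were, with DESeq2, 19 for 3,4-Dichlorophenyl isocyanate, 4 for 4-Chlorophenyl methyl sulfoxide, 2 for Gabapentin, 1 for Hydrochlorothiazide and 4 for Metolachlor OA; with CON pools alone, 0 for 4-Chlorophenyl methyl sulfoxide, 0 for Metribuzin-DA, 13 for Fipronil amide (9 higher at D1) and 30 for cis-Nonachlordane; 6 for Metribuzin-DA by library totals and 6 with no filter. Putting the library set aside back gave 5 for 3,4-Dichlorophenyl isocyanate, and library totals gave 13 lower at D1 of Fipronil amide.

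Leaving out each letter in turn gave, over all levels, 22 to 45 for 2-tert-Butyl-4-methoxyphenol, 1 to 8 for 3,4-Dichlorophenyl isocyanate, 2 to 13 for Fipronil amide, 0 to 7 for Metribuzin-DA and 5 to 15 for cis-Nonachlordane. Trend counts were 1 to 29, 1 to 11 and 1 to 11 for the first 3 of these and 5 to 10 for cis-Nonachlordane. Sums over single levels were 32 to 64 for 2-tert-Butyl-4-methoxyphenol (11 to 17 higher at D1), 4 to 25 for 3,4-Dichlorophenyl isocyanate, 0 to 1 for 4-Chlorophenyl methyl sulfoxide, 12 to 21 for Fipronil amide (8 to 12 higher and 4 to 8 lower at D1), 0 to 14 for Metribuzin-DA and 16 to 43 for cis-Nonachlordane. Alternatives with the library put back, without DMSO pool CON C of C1C2, with no filter at single levels and for the letters were chosen after seeing the data. At the lowest depth used, 167462 counts, the counting interval of the summed share was at most 0.236 percentage points to either side for the 56 probes together; single probes can rest on few counts, as Dapma7bEVm001460_96205 did with 11, 31 and 23 counts at D1 of 2-tert-Butyl-4-methoxyphenol.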
